A study of Caenorhabditis elegans with 9 samples.

Results

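Gene expression was compared between a pair of Caenorhabditis elegans strains that both carry mutations in the Piwi genes prg-1 and prg-2 but differ in their alleles. The groups were 3 arrays of n4503 nDf57, which is strain SX9 with the genotype prg-1(n4503);prg-2(nDf57), and 3 arrays of n4357 n4358, which is strain MT14769 with the genotype prg-1(n4357);prg-2(n4358). These are 6 of the 9 arrays of the study, chosen by their titles, and the 3 wild-type arrays entered no value given here. All 6 held RNA from pelleted whole animals labelled as young adults, 1 sample per one-colour Affymetrix array. Each pair of alleles was represented by 1 strain, so an effect of the alleles and an effect of anything else that differs between the strains cannot be told apart. The labels do not say whether the replicates of a strain were grown separately. The p-values therefore reflect no more than the differences among these 6 samples, which can include technical ones.

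Piwi proteins are Argonautes of the animal germline that bind piRNAs, short RNAs which guide them to complementary transcripts. In C. elegans the piRNA-bound PRG-1 hands its targets over to a secondary small RNA pathway, in which RNA-dependent RNA polymerases make further small RNAs that other Argonautes use to silence the target. Animals without PRG-1 lose piRNAs and become less fertile, and prg-2 is a close relative that the reference gene table lists as a pseudogene. The comparison asks which transcripts differ between independent mutants in which the same pathway is affected.

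Values are log2 expression levels, so a difference of 1 is a 2-fold ratio, and a difference is n4503 nDf57 minus n4357 n4358 throughout. The array medians lay between 4.76 and 4.83. Differences were tested with limma over 22548 probe sets and p-values were adjusted by the Benjamini-Hochberg method, with a threshold of 0.05. The number of arrays limits the precision: the median standard error (SE) of a difference was 0.165, so a typical probe set needed a difference of 0.40 to reach an unadjusted p of 0.05.

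One array of each strain stood apart from the other 4. Replicate 1 of n4503 nDf57 and replicate 3 of n4357 n4358 correlated with each other at a Pearson r of 0.981 over all probe sets, while replicate 1 reached only 0.969 and 0.966 with the other n4503 nDf57 arrays and replicate 3 only 0.959 and 0.954 with the other n4357 n4358 arrays. The other 4 arrays correlated at 0.985 to 0.994 with one another, whichever strain they held. The 2 arrays that stood apart also differed from each other, at least 2-fold in 588 probe sets. Pairs of the other 4 arrays did so in 53 to 536. Of the total variation, 12.8% lay between the strains and 87.2% inside them, and the first component of the variation inside the strains, 69.9% of it, set these same 2 arrays at 0.52 and 0.63 and the other 4 between -0.34 and -0.23.

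Genes of the moulting cycle, the cuticle and yolk moved with this split. Moulting genes, which act in the renewal of the cuticle between larval stages, had list means of -0.49, 0.27 and 0.26 log2 relative to all 6 arrays in n4503 nDf57, against 0.35, 0.16 and -0.55 in n4357 n4358. Vitellogenins, the yolk proteins made in the adult intestine, ran the other way, at 0.87, -0.41 and -0.43 in n4503 nDf57 and -0.45, -0.04 and 0.46 in n4357 n4358. All 6 arrays share the label young adult, and the part of these lists in the differences between the strains was not tested beyond giving values with all 6 arrays and without these 2.

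**Figure D1:**
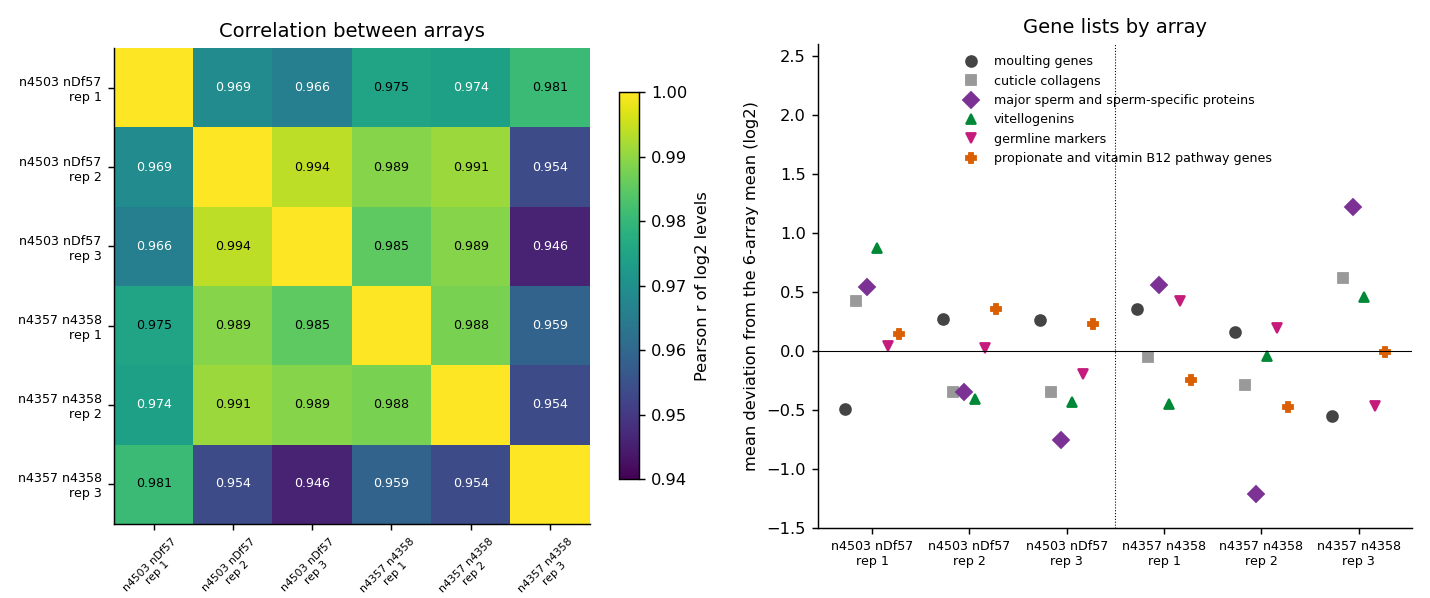
Left, Pearson correlation of log2 levels between each pair of the 6 arrays (colour scale 0.94 to 1). Right, the mean deviation of 6 gene lists from the 6-array mean on each array (log2, one symbol per list, dotted line between the strains). Replicate 1 of n4503 nDf57 and replicate 3 of n4357 n4358 lie apart, with low moulting genes and high vitellogenins, whereas the propionate and vitamin B12 genes were at or above 0.14 on all n4503 nDf57 arrays and at or below -0.01 on all n4357 n4358 arrays.

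The probe sets of both mutated genes stood above the array medians on all 6 arrays. prg-1, on chromosome I, had 7.50, 6.72 and 7.07 log2 in n4503 nDf57, against 6.74, 7.94 and 5.47 in n4357 n4358. Its only probe set is of a type that can be shared between transcripts, and whether it reads prg-1 alone was not tested. The n4357 n4358 arrays spanned the whole range of the n4503 nDf57 arrays, and the difference was 0.38 (SE 0.61, 95% confidence interval -1.09 to 1.85). It ran from -0.25 to 0.99 when single arrays were left out, was -0.25 without replicate 3 of n4357 n4358, and was -0.45 without both arrays that stand apart. In whole animals, fewer germ cells and less RNA per germ cell cannot be told apart, and germline markers had list means of 0.04, 0.02 and -0.20 in n4503 nDf57 and 0.42, 0.19 and -0.47 in n4357 n4358.

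prg-2, on chromosome IV, had 6.27, 5.87 and 5.95 in n4503 nDf57, against 5.46, 6.10 and 6.04 in n4357 n4358, a difference of 0.16 (SE 0.21, interval -0.35 to 0.68) with overlapping groups. Without replicate 1 of n4357 n4358 it was -0.04. The position of the probes relative to the deleted sequence was not analysed here, so these levels do not check the alleles.

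The allele name nDf57 marks it as a deficiency, so the genes next to prg-2 in the reference gene order were read one by one. On the near side these are gtnt-2, ddi-1 and C01G5.5, with differences of -0.15, 0.12 and 0.03. On the far side C01G5.4 differed by -0.15 and C01G5.3 by -0.01, the last of them at 2.58 to 2.64 in n4503 nDf57 and 2.56 to 2.64 in n4357 n4358. In all, 13 of the 20 nearest genes were measured, and their differences ran from -0.21 to 0.38 with a median of 0.09. The arrays failed to overlap for 1 of them, the bestrophin gene best-9, at 4.0, 4.22 and 4.37 in n4503 nDf57 and 3.86, 3.94 and 3.65 in n4357 n4358. Thus no measured neighbour differed between the strains by more than 0.38, and the 7 others have no probe set of their own here. Of the 13 measured, 3 lay under 4 log2 on all n4503 nDf57 arrays, among them C01G5.3 and dzpr-1. C01G5.3 and dzpr-1 were as low in n4357 n4358, so a loss of either could hardly show.

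Around prg-1, 18 of the 20 nearest genes were measured. Their differences ran from -0.15 to 0.47 with a median of 0.22, and 15 were above 0, but all 18 overlapped between the strains and the smallest unadjusted limma p was 0.129. Nearest to prg-1 were ndub-7, a subunit of mitochondrial complex I, at 0.15, mce-1, the methylmalonyl-CoA epimerase, at 0.30, D2030.7 at 0.37 and D2030.8 at 0.28.

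**Figure D2:**
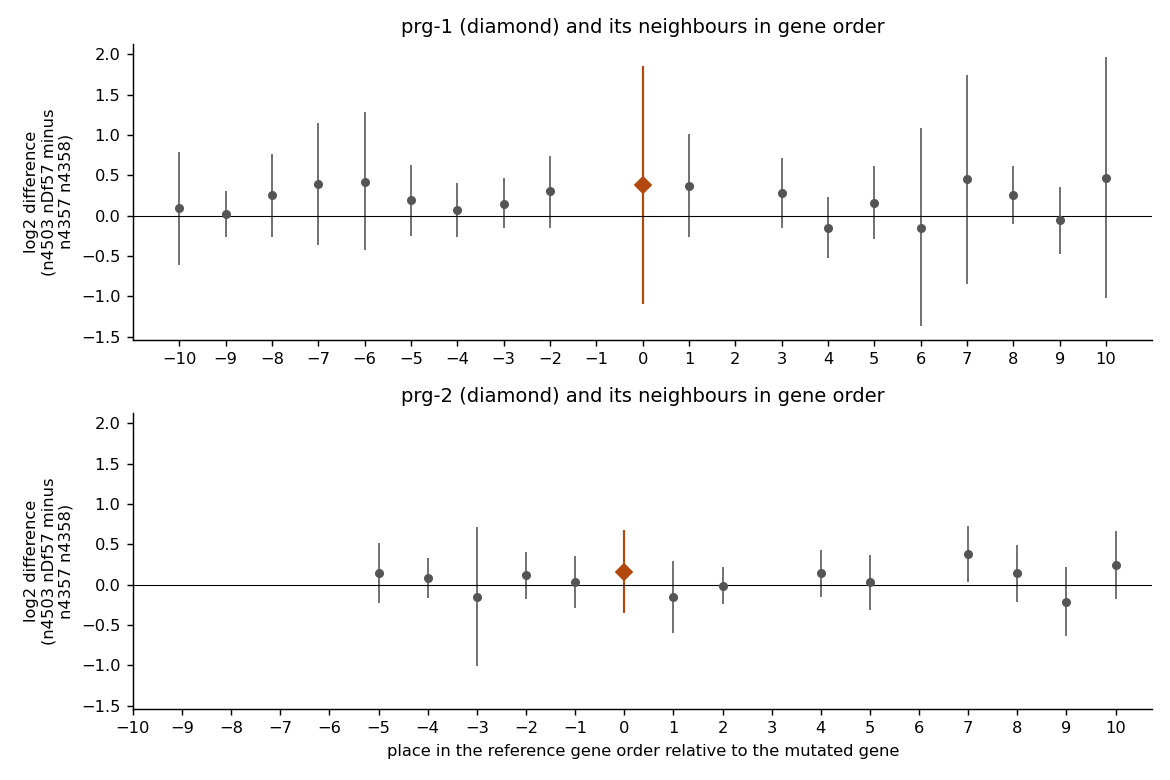
Log2 difference of prg-1 and prg-2 (diamonds) and of the measured genes among the 10 nearest on each side (circles), in the order of the reference gene table, with 95% confidence intervals from limma. All intervals reach 0 except that of best-9, the seventh gene beyond prg-2.

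Across all probe sets no difference passed the test. The smallest adjusted p in limma was 0.997, so 0% of probe sets were called higher and 0% lower in n4503 nDf57. At an unadjusted p under 0.05 there were 278 higher probe sets (1.23%) and 121 lower ones (0.537%). Without any difference a share of 0.05 would be expected under this threshold, and both directions together gave less in this fit. That depends on the setting. With array weights the counts were 2086 higher and 1444 lower, above that share. Without both arrays that stand apart they were 1552 and 762, also above it. No probe set passed the adjusted test in either setting. All 3 n4503 nDf57 arrays lay above all 3 n4357 n4358 arrays for 760 probe sets (3.37%) and below them for 478 (2.12%). Under cyclic loess these counts were 778 and 786, and with each array centred on ribosomal protein and proteasome genes they were 1017 and 317, so which direction has more of them depends on the scaling. With 3 arrays a side, an exact permutation of arrays cannot give a two-sided p below 0.1. Arrays that do not overlap have that p of 0.1, and both directions together held a smaller share of the probe sets.

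Differences of 2-fold or more were found for 35 probe sets in the higher and 36 in the lower direction, of which 18 and 13 had arrays that did not overlap. No probe set lay at 4 log2 or less on all arrays of one strain and at 6 or more on all arrays of the other. Counted once per gene, 615 of 17118 genes (3.59%) were higher on all n4503 nDf57 arrays and 336 (1.96%) were lower. They were spread over all chromosomes, with 3.06% (chromosome V) to 4.53% (chromosome III) higher and 1.55% (chromosome V) to 2.35% (chromosome I) lower. A run of 3 neighbouring measured genes with the same direction and no overlap was found 1 time, for F32D8.11, F32D8.12 and F32D8.5 on chromosome V, higher by a median of 0.61.

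The 2 known piRNA targets that were read by rule differed in their pattern. bath-45, a gene with BTB and MATH domains, had 6.10, 6.39 and 6.25 in n4503 nDf57, against 6.04, 5.77 and 5.43 in n4357 n4358. All n4503 nDf57 arrays were above all n4357 n4358 arrays, by a narrow margin between the nearest ones, and the difference of 0.50 (SE 0.18) did not pass the adjusted test. It was 0.41 without the 2 arrays that stand apart. xol-1, the switch gene of sex determination, was low on every array, with 3.09, 2.91 and 2.92 in n4503 nDf57 and 2.92, 3.05 and 2.80 in n4357 n4358.

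The next genes were picked for the smallest unadjusted p and non-overlapping arrays, so their separation follows from that choice. None passed the adjusted test. DH11.2, with the smallest p of all, had 7.0, 7.07 and 6.89 in n4503 nDf57 and 5.92, 5.98 and 5.46 in n4357 n4358, a difference of 1.2 (SE 0.17, unadjusted limma p 0.000297, adjusted 0.997). C23H5.8 was read by 2 probe sets that differed by 1.88 and 1.85, and the first of them gave 10.35, 10.45 and 10.96 in n4503 nDf57, against 8.14, 8.26 and 9.74 in n4357 n4358. Both differences became larger, 2.51 and 2.54, without the arrays that stand apart. msra-1, a methionine sulfoxide reductase that repairs oxidised methionine, had 9.28, 9.48 and 9.48 in n4503 nDf57 and 8.87, 8.96 and 8.90 in n4357 n4358.

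Further genes of this kind in the higher direction were C24B9.3 at 0.87 and Y57A10A.29 at 0.54. In the lower direction M162.5 differed by -0.57, W03C9.6 by -0.47, idpc-6 by -0.48, T07C4.3 by -0.65, D2096.6 by -0.62, F20B10.3 by -0.35 and hrg-11.2 by -1.08. The T07C4.3 value is that of its probe set with the lower mean. Its probe set with the higher mean gave -0.36 with overlapping arrays.

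The gene list that stood out in the higher direction was that of propionate and vitamin B12 metabolism. Propionate, a toxic product of the breakdown of some amino acids and odd-chain fatty acids, is normally cleared through a route that needs vitamin B12. When that route is limited, C. elegans switches on a shunt that oxidises propionate without the vitamin. Of 31 measured genes 24 had a positive difference, and 9 were higher on all n4503 nDf57 arrays than on any n4357 n4358 array, which is 29% beside 3.59% of all genes. None was lower in that sense, where all genes gave 1.96%. The list median was 0.27, beside 0.00 over all genes, and ran from 0.14 to 0.31 with single arrays left out and was 0.26 without the 2 arrays that stand apart.

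All 5 enzymes of the shunt were higher in n4503 nDf57 without overlap. The first, acdh-1, an acyl-CoA dehydrogenase widely used as a reporter of low vitamin B12, had 10.76, 11.68 and 11.65 log2 in n4503 nDf57, against 8.44, 4.51 and 10.34 in n4357 n4358. Its difference of 3.60 (SE 1.4, interval 0.21 to 6.98) was the largest of all probe sets in either direction, but the n4357 n4358 arrays differed among themselves by more than that, and it was 1.97 without replicate 2 of n4357 n4358 and 4.89 without replicate 3. Neither it nor any other gene of the list passed the adjusted test.

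The next enzyme, the hydratase ech-6, had 11.45, 12.17 and 11.90 in n4503 nDf57 and 10.41, 10.23 and 11.25 in n4357 n4358, a difference of 1.21 (SE 0.32). hach-1, the hydrolase of the third step, had 9.36, 9.93 and 9.72 in n4503 nDf57 and 8.61, 8.45 and 9.15 in n4357 n4358, a difference of 0.93 (SE 0.24). hphd-1, the dehydrogenase of the fourth step, had 10.66, 10.54 and 10.46 in n4503 nDf57, against 8.87, 7.99 and 10.24 in n4357 n4358. In each of these genes replicate 3 of n4357 n4358, one of the arrays that stand apart, was the nearest to n4503 nDf57. A second hphd-1 probe set differed by 1.32, beside 1.52 for the first, and its arrays overlapped.

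The last enzyme, alh-8, which turns malonic semialdehyde into acetyl-CoA, had 11.31, 11.64 and 11.58 in n4503 nDf57 and 10.92, 10.88 and 11.09 in n4357 n4358, a difference of 0.55 (SE 0.13). The median of the 5 shunt enzymes was 1.21 with all arrays and 1.71 without the 2 that stand apart. The gene dhgd-1, whose product removes the D-2-hydroxyglutarate that HPHD-1 makes, was added after its values were seen. It had 8.21, 9.03 and 8.87 in n4503 nDf57 and 7.90, 6.70 and 7.88 in n4357 n4358, again without overlap.

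The route that needs vitamin B12 showed smaller differences. Its 6 measured genes had a median of 0.18 and ran from -0.07 to 0.39. The propionyl-CoA carboxylase subunits pcca-1 and pccb-1 differed by 0.00 and -0.07, the epimerase mce-1 by 0.30 and the mutase mmcm-1 by 0.08. Of the cobalamin-handling genes, mmaa-1 had 6.90, 7.14 and 7.11 in n4503 nDf57 and 6.74, 6.86 and 6.75 in n4357 n4358, without overlap, while mmab-1 differed by 0.39 with overlap.

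Vitamin B12 is also the cofactor of methionine synthase. The synthase gene metr-1 had a difference of 0.03 (SE 0.28), whereas mtrr-1, the reductase that keeps the enzyme's cofactor active, had 8.59, 8.77 and 8.49 in n4503 nDf57, against 7.94, 7.86 and 7.98 in n4357 n4358. The mtrr-1 difference of 0.69 (SE 0.12, unadjusted limma p 0.000895) had the smallest p of the list and moved only between 0.61 and 0.75 when single arrays were left out. Across the methionine cycle and the transsulfuration branch 11 genes had a median of 0.03, from -0.69 for the cystathionine beta-synthase gene cbs-1 to the 0.69 of mtrr-1. The main S-adenosylmethionine synthetase gene sams-1 differed by -0.20.

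folt-2, which encodes a folate transporter-like protein, had 9.69, 9.93 and 10.12 in n4503 nDf57 and 7.71, 8.39 and 9.03 in n4357 n4358, a difference of 1.53 (SE 0.33). Its relative folt-1, a folate transporter, differed by 1.0 (SE 0.45) with overlapping arrays, since replicate 1 of n4503 nDf57 stood at 6.88 beside 6.60 to 7.24 in n4357 n4358. nhr-68, one of the nuclear hormone receptors that turn the shunt on, had 7.73, 8.30 and 8.38 in n4503 nDf57 and 7.72, 6.61 and 7.69 in n4357 n4358. The groups were separated by 0.01 only. The partner receptor nhr-10 differed by 0.43 and nhr-114, which acts on the methionine cycle, by 0.27, both with overlap.

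**Figure D3:**
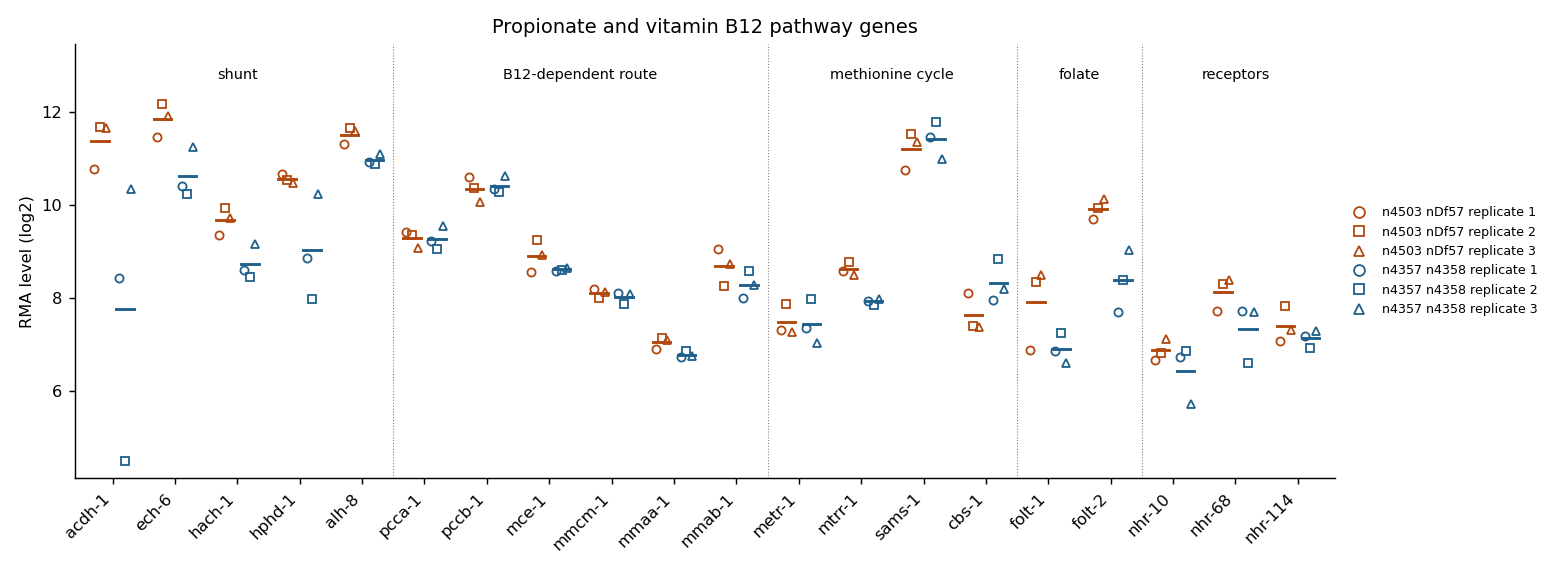
RMA level (log2) of 20 propionate and vitamin B12 genes on each array, n4503 nDf57 at the left of each pair and n4357 n4358 at the right, one symbol per replicate and a bar at the mean of 3. The 5 shunt enzymes at the left, mtrr-1 and folt-2 are separated between the strains, while pcca-1, pccb-1, mmcm-1 and metr-1 overlap, and acdh-1 spreads from 4.51 to 10.34 within n4357 n4358.

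In the lower direction the list that stood out was that of epidermal antimicrobial peptides, small secreted peptides that the epidermis makes on fungal infection or wounding. Of 31 measured genes 8 had a positive difference, and 6 were lower on all n4503 nDf57 arrays than on any n4357 n4358 array, which is 19.4% beside 1.96% of all genes, while 1 was higher. The list median was -0.21, between -0.29 and -0.14 with single arrays left out and -0.15 without the 2 arrays that stand apart. The list means were -0.51, -0.01 and 0.02 in n4503 nDf57, against 0.33, 0.28 and -0.11 in n4357 n4358. As a list the strains thus overlapped, with replicate 3 of n4357 n4358 below replicates 2 and 3 of n4503 nDf57. None of the 31 genes passed the adjusted test.

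Caenacins had the single genes with the largest differences, and 4 of 8 were lower without overlap, beside 1.96% of all genes. The probe sets of cnc-2 and cnc-7 are of a type that can be shared between transcripts, so these readings may not be independent. Their median was -0.26, or -0.13 without the 2 arrays that stand apart. cnc-4 had 6.39, 4.24 and 4.82 in n4503 nDf57, against 8.39, 6.87 and 6.82 in n4357 n4358, a difference of -2.21 (SE 0.66). cnc-2 had 4.07, 4.57 and 4.49 in n4503 nDf57 and 6.29, 5.83 and 5.21 in n4357 n4358, a difference of -1.4 (SE 0.29). cnc-7 was read by 2 probe sets with differences of -1.32 and -1.29, and the first gave 3.72, 3.98 and 4.35 in n4503 nDf57 and 4.92, 5.49 and 5.62 in n4357 n4358. cnc-6 differed by -0.21 and was low on every array, at 3.33 to 3.44 in n4503 nDf57 and 3.54 to 3.64 in n4357 n4358. In contrast, cnc-3 and cnc-8 had differences of 0.08 and 0.45 with overlap.

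The nlp peptides of the same list had differences below 0 in 9 of 10 genes and a median of -0.45, or -0.38 without the 2 arrays that stand apart. The probe sets of nlp-27, nlp-28, nlp-29, nlp-30, nlp-31 and nlp-33 are of a type that can be shared between transcripts. Their readings may therefore not be independent. nlp-30 had 7.63, 7.90 and 8.06 in n4503 nDf57 and 9.27, 8.23 and 8.25 in n4357 n4358, and nlp-32 differed by -0.42, both without overlap. The much-used infection reporter nlp-29 had 6.42, 7.97 and 8.05 in n4503 nDf57, against 9.06, 8.62 and 6.73 in n4357 n4358. It overlapped because replicate 3 of n4357 n4358 was the second lowest of the 6. The fungus-induced peptides had a median of -0.07 over 13 genes, and fipr-17, at 0.32, was the member with all n4503 nDf57 arrays above.

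Other innate immune effectors, a list of 280 genes for lectins, lysozymes, saposin-like proteins and infection response genes, had a median of -0.10, with 10 genes (3.57%) higher and 7 (2.5%) lower without overlap. These shares lie near those of all genes, 3.59% and 1.96%. lys-4, a lysozyme, had 9.72, 9.79 and 9.79 in n4503 nDf57, against 8.72, 8.11 and 8.81 in n4357 n4358, a difference of 1.22 (SE 0.20, unadjusted limma p 0.000732). clec-47, a C-type lectin, had 6.79, 6.99 and 8.48 in n4503 nDf57 and 4.65, 5.48 and 5.40 in n4357 n4358, a difference of 2.24 (SE 0.49).

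Most C-type lectins had a negative difference. Of 220 measured, 68 were positive and 149 negative, and the median was -0.12, or -0.04 without the 2 arrays that stand apart. Without overlap 8 were higher and 3 lower, where all genes gave 3.59% and 1.96%. Beside clec-47 the higher ones included clec-61 at 0.48, clec-178 at 0.55, clec-48 at 0.61 and clec-49 at 0.43, and the lower ones were clec-22 at -0.36, clec-155 at -0.20 and clec-149 at -0.17. In the lower direction irg-4, a gene induced by bacterial infection, had 10.76, 10.43 and 10.51 in n4503 nDf57 and 11.38, 11.89 and 10.93 in n4357 n4358, a difference of -0.83 (SE 0.25). irg-5, another such gene, differed by -1.10 and spp-18, a saposin-like gene, by -0.40. Intracellular pathogen response genes, 39 of them, had a median of -0.03 with 0 higher and 3 (7.69%) lower without overlap, beside 3.59% and 1.96% of all genes.

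**Figure D4:**
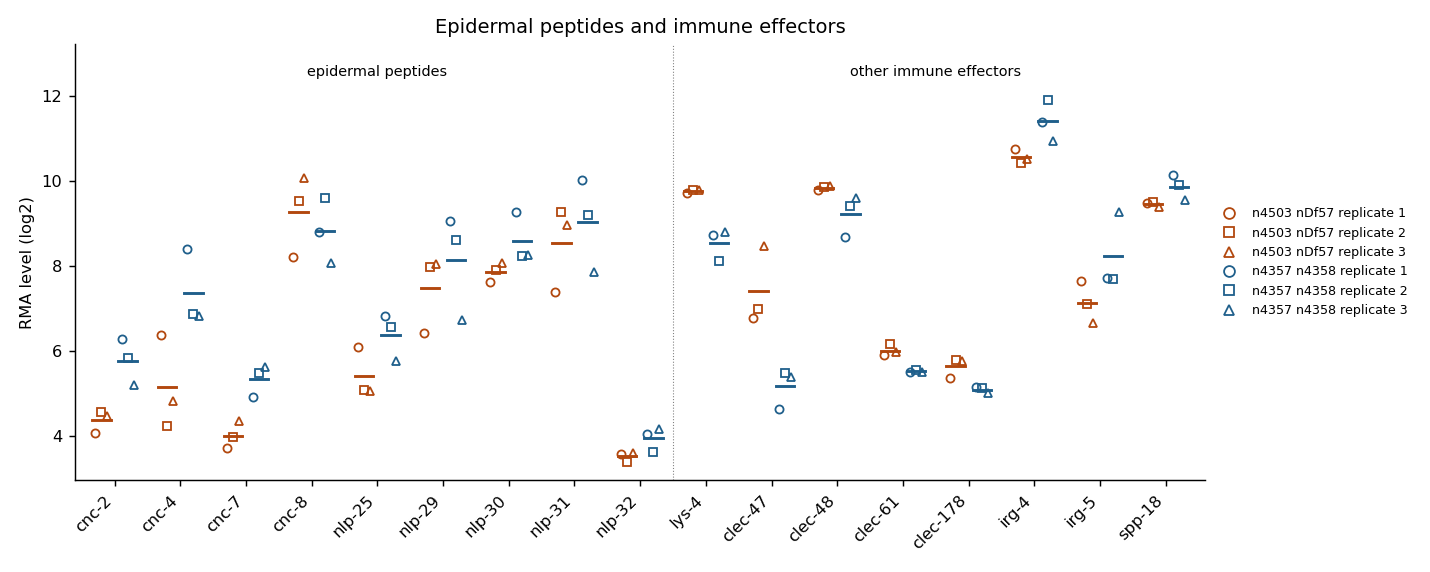
RMA level (log2) of 9 epidermal peptide genes and 8 other immune genes on each array, n4503 nDf57 at the left of each pair and n4357 n4358 at the right, one symbol per replicate and a bar at the mean of 3. cnc-2, cnc-4 and cnc-7 are lower and lys-4 and clec-47 higher on all n4503 nDf57 arrays, while nlp-29 and nlp-31 overlap.

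Detoxification enzymes, the oxidising and conjugating enzymes of foreign compounds, counted 182 genes with a median of 0.08. Without overlap 16 (8.79%) were higher and 1 (0.549%) was lower, beside 3.59% and 1.96% of all genes. The UDP-glucuronosyltransferases made up 10 of the 16 and the single lower gene, from 64 measured, with a median of 0.15. ugt-62 had 9.60, 10.17 and 10.10 in n4503 nDf57 and 8.89, 9.27 and 9.16 in n4357 n4358, a difference of 0.85 (SE 0.19). ugt-15 went the other way with 4.07, 3.98 and 4.0 in n4503 nDf57, against 6.12, 5.68 and 4.19 in n4357 n4358. The 73 cytochrome P450 genes and 45 glutathione S-transferase genes had medians of 0.03 and 0.08.

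Nuclear hormone receptors, the ligand-regulated transcription factors that are especially numerous in nematodes, had a median of 0.04 over 254 genes. Of these 18 (7.09%) were higher and 3 (1.18%) lower without overlap, beside 3.59% and 1.96% of all genes. nhr-8, a receptor of sterol metabolism and drug resistance, had 7.42, 7.57 and 8.0 in n4503 nDf57 and 5.96, 6.45 and 7.29 in n4357 n4358, a difference of 1.09 (SE 0.35). nhr-106 differed by 0.44 and nhr-226 by 0.53.

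Lipid storage and beta-oxidation genes had a median of 0.07 over 79 genes. Of these, acdh-1, acdh-2 and ech-6 also belong to the propionate list. Without overlap 5 (6.33%) were higher and 1 (1.27%) was lower, beside 3.59% and 1.96% of all genes. Both acdh-1 and ech-6 are among the 5, so the higher share in part repeats that of the propionate list. lbp-1, a lipid-binding protein, had 8.56, 8.95 and 9.06 in n4503 nDf57 and 8.16, 8.29 and 8.32 in n4357 n4358, a difference of 0.60 (SE 0.16). The thiolase kat-1 differed by 0.43, the acyl-CoA dehydrogenase acdh-9 by 0.37 and the acyl-CoA oxidase acox-1.5 by -0.60. Among fatty acid desaturases and elongases the elongase elo-6, which makes branched-chain fatty acids, differed by 0.40, and the list of 15 had a median of 0.03.

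Targets of DAF-16, the FOXO transcription factor of insulin signalling, had a median of 0.02 over 24 genes. Genes that DAF-16 raises and genes that it lowers were not separated in this list, so the median does not measure its activity. Without overlap 2 (8.33%) were higher and 3 (12.5%) lower, beside 3.59% and 1.96% of all genes. asm-3, an acid sphingomyelinase, had 6.84, 6.04 and 5.82 in n4503 nDf57, against 8.33, 7.54 and 7.80 in n4357 n4358, a difference of -1.66 (SE 0.32, unadjusted limma p 0.00192). The acid ceramidase gene asah-1, which acts after it in sphingolipid breakdown and was chosen after its values were seen, had 7.29, 6.80 and 6.24 in n4503 nDf57 and 8.78, 7.88 and 7.49 in n4357 n4358. mtl-2, a metallothionein, was lower on all n4503 nDf57 arrays in each of its 3 probe sets, with differences of -0.53, -0.37 and -0.29. The intestinal esterase ges-1 differed by 0.30.

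In the small RNA pathways the genes without overlap were 1 lower (5.26%) of 19 piRNA pathway factors, 1 higher (2.56%) of 39 RNA interference genes and 2 lower (9.09%) of 22 P granule genes, beside 3.59% higher and 1.96% lower of all genes. Of the 19 measured piRNA pathway factors 9 had a positive difference, the median was -0.01, or -0.20 without replicate 3 of n4357 n4358, and differences ran from -0.43 to 0.38. prde-1, needed to transcribe piRNA precursors, was the member below on all n4503 nDf57 arrays, at 3.31, 3.31 and 3.15, against 3.43, 3.35 and 3.75 in n4357 n4358. The 20 Argonautes had a median of -0.06 with 0 genes separated in either direction. Smallest in p among them was alg-4, an Argonaute of the male germline, with a difference of -0.22.

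RNA interference machinery, 39 genes, had a median of 0.12 with 29 above 0, and 1 separated gene, the helicase mut-14 at 0.08. The median was -0.05 without replicate 3 of n4357 n4358, 0.22 without replicate 1 of n4503 nDf57 and 0.07 without both. eri-5, a partner of the Dicer complex, differed by -0.36 with overlap. P granule proteins, components of the germline granules in which piRNA targeting takes place, had a median of -0.11 with 5 of 22 above 0, and the helicase glh-4 and the RNA-binding protein mex-3 were below on all n4503 nDf57 arrays, with a difference of -0.22 each. pgl-3, a scaffold of the granules, had 5.39, 5.26 and 4.8 in n4503 nDf57 and 6.03, 5.28 and 5.67 in n4357 n4358.

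Gene families with known small RNA targets had list medians close to 0. BATH, MATH and BTB domain genes, 103 with bath-45 among them, had a median of -0.02, with 3 (2.91%) higher and 1 (0.971%) lower without overlap. F-box genes had a median of -0.01 over 310, with 14 (4.52%) higher and 5 (1.61%) lower, and the F-box shares lie near the 3.59% and 1.96% of all genes. fbxa-166 had 4.39, 4.92 and 6.01 in n4503 nDf57 and 3.86, 3.98 and 4.18 in n4357 n4358, and fbxa-6 differed by 0.58.

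Germline and stage lists varied more among arrays of a strain than between strains. Major sperm proteins and sperm-specific family genes, which share near-identical members, had 1 of 41 differences above 0 and a median of -0.37. Their list means were 0.54, -0.35 and -0.76 in n4503 nDf57, against 0.56, -1.21 and 1.22 in n4357 n4358, so the n4357 n4358 arrays enclosed the others. The median was 0.14 without replicate 3 of n4357 n4358 and -1.22 without replicate 2, and it was -0.24 without both arrays that stand apart. Other sperm genes had a median of -0.09.

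The median was -0.17 for oocyte and eggshell genes and -0.14 for germline markers, and these became -0.29 and -0.37 without both arrays that stand apart. The germline median was 0.09 without replicate 1 of n4357 n4358. Meiotic chromosome proteins had 0.03, with syp-4 of the synaptonemal complex below on all n4503 nDf57 arrays, with a difference of -0.30. DNA replication and cell division genes had 0.01, with 1 (2.78%) higher and 4 (11.1%) lower of 36 without overlap, beside 3.59% and 1.96% of all genes. The lower ones were the spindle checkpoint gene bub-3 at -0.35, the cyclin gene cyb-3 at -0.42, the centromere histone gene hcp-3 at -0.18 and the polymerase gene pola-1 at -0.30, and a second bub-3 probe set gave -0.11 with overlap. The higher one was rnr-2, a ribonucleotide reductase subunit, at 0.40.

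Cuticle collagens had a median of -0.20 with 29 of 145 above 0 and 0 separated genes. It was 0.06 without replicate 3 of n4357 n4358, -0.42 without replicate 1 of n4503 nDf57 and -0.15 without both. Their list means were 0.42, -0.35 and -0.35 in n4503 nDf57 and -0.05, -0.29 and 0.62 in n4357 n4358. The moulting genes had a median of 0.03, with the extracellular matrix gene fbl-1 at 0.59 and the transcription factor gene grh-1 at -0.28 as the separated members. Their median was -0.27 without replicate 3 of n4357 n4358, 0.34 without replicate 1 of n4503 nDf57 and 0.04 without both. Hedgehog-related and Patched-related genes had a median of -0.07 and histones one of -0.04. Vitellogenins had a median of 0.06, which was -0.41 without replicate 1 of n4503 nDf57, 0.33 without its replicate 3 and -0.15 without both arrays that stand apart. Among the sex determination and dosage compensation genes the median was 0.03 and among 13 male-specific genes -0.03, with 0 separated genes in each.

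Of the tissue markers, one of the intestine and one of muscle are given as examples, and both stood above the array medians. Not all members of the intestine list did. Its member pgp-1 stood between 4.13 and 5.43 in n4503 nDf57 and between 4.25 and 4.53 in n4357 n4358. The list as written also holds gcy-8, which is a gene of sensory neurons and no intestine marker. gcy-8 stood between 3.25 and 3.68 in n4503 nDf57 and between 3.27 and 3.95 in n4357 n4358. ges-1 of the intestine stood between 8.44 and 8.71 in n4503 nDf57 and between 8.15 and 8.34 in n4357 n4358, and the body wall muscle myosin unc-54 between 8.04 and 9.38 in n4503 nDf57 and between 8.33 and 9.18 in n4357 n4358. The list medians were 0.04 for muscle, 0.00 for intestine and 0.05 for neuron markers. Housekeeping lists were also close to 0, at 0.00 for ribosomal proteins, 0.04 for oxidative phosphorylation genes and -0.08 for proteasome subunits. The name pattern of the oxidative phosphorylation list also took in lpd-6, which was its single lower member at -0.34. Heat shock genes had a median of 0.03, endoplasmic reticulum stress genes one of -0.02 and the 1323 chemoreceptor genes one of 0.00.

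**Figure D5:**
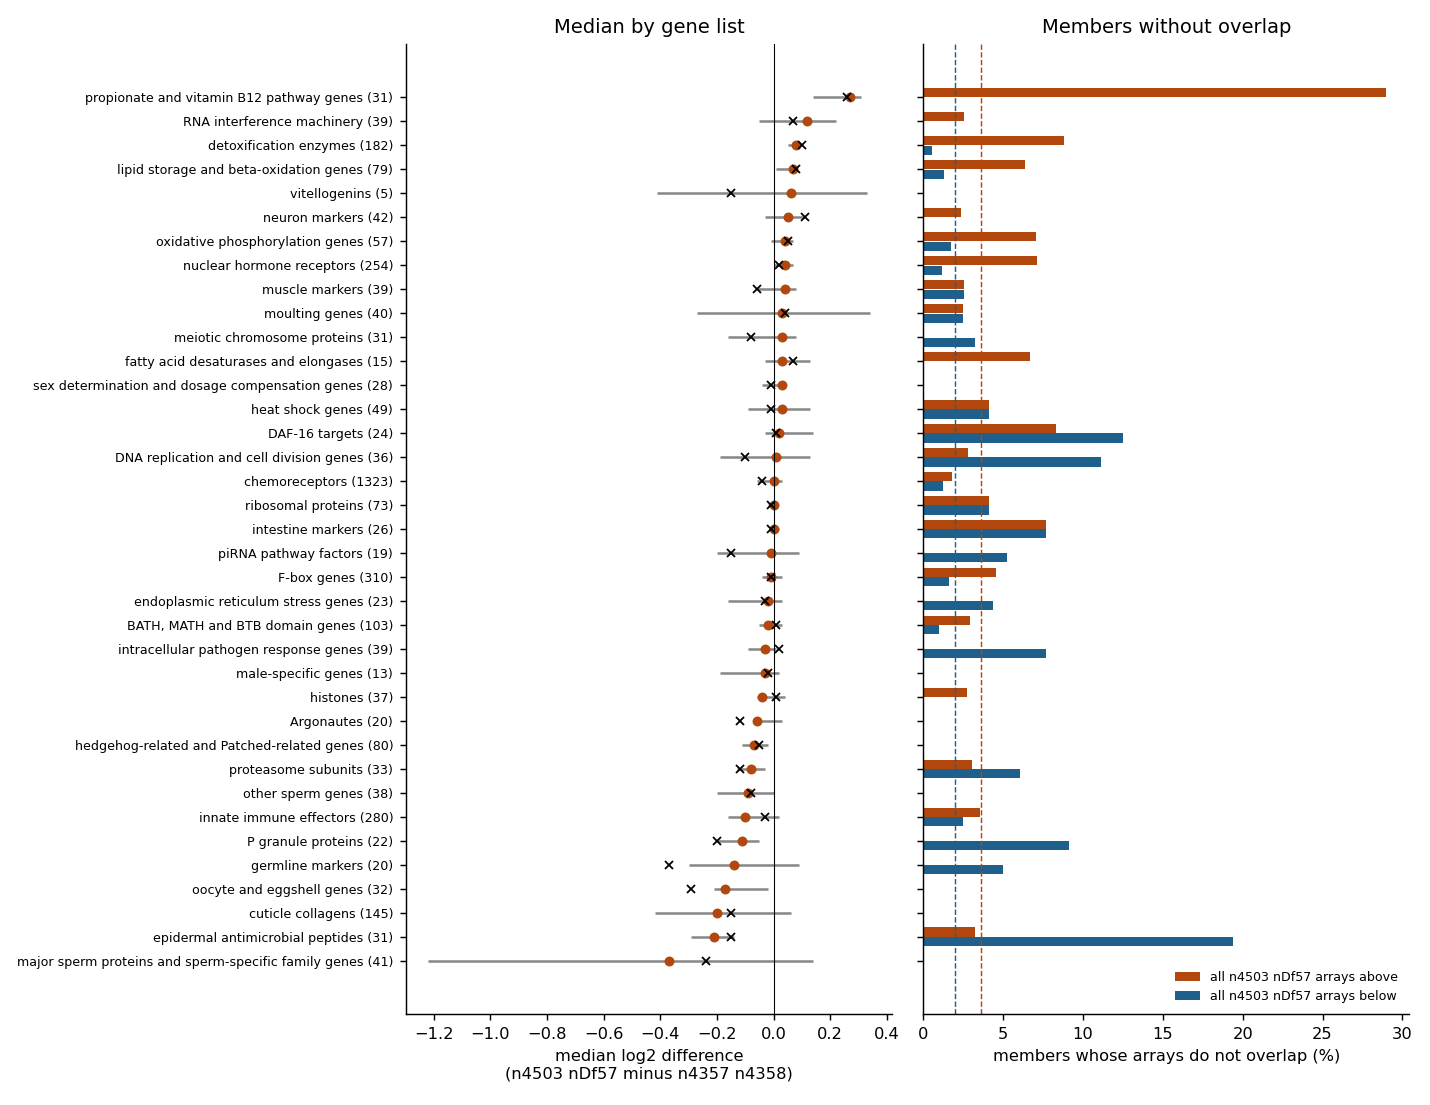
Left, median log2 difference of each gene list (circles), its range with single arrays left out (grey lines) and its value without the 2 arrays that stand apart (crosses), with the number of measured members in brackets. Right, the percent of members with all n4503 nDf57 arrays above (orange) or below (blue) all n4357 n4358 arrays, with dashed lines at 3.59% and 1.96%, the shares of all genes. The propionate and vitamin B12 genes reach 29% above and the epidermal antimicrobial peptides 19.4% below.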

How the data were processed

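RNA of whole animals was labelled with a 3' expression kit for Affymetrix arrays, per the labels' protocols. Deposited values are log2 levels per probe set made by the authors with RMA, per the submitters' processing notes, which also name limma. RMA equalises the arrays' distributions, so a shift shared by most genes would be removed. Of 22625 probe sets 77 controls were left out and 22548 tested. Of these 20766 name 1 gene, 887 several and 895 none, covering 17118 genes. Names were taken from GEO's probe annotation, with 20701 probe sets matched to the WBcel235 gene table, which also gave gene order and chromosome.

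The 6 mutant arrays entered 1 limma fit (limma 3.58.1, statmod 1.5.0, R 4.3.3) with a mean per strain, 4 residual and 2.26 prior degrees of freedom. It was tried on simulated data with independent noise in each probe set. Such data lack the variation that many probe sets share on the 2 arrays that stand apart, so that trial does not cover it. Tables and figures used Python 3.11.15, numpy 2.4.6, pandas 2.3.3 and matplotlib 3.10.9. A gene was read by its probe set with the highest mean, except that the ranking by p took each probe set by itself. Genes named by rule were prg-1, prg-2, bath-45, xol-1, the measured genes among the 3 nearest on each side of the mutated genes, the 12 non-overlapping probe sets of smallest unadjusted p in each direction, since none was called, and the member with the smallest p in each of 37 lists. Other list members and genes were chosen after their values were seen. The members, lists and tests were chosen with earlier results of these data known. Deviations from strain means correlated at -0.46, 0.37 and -0.60 between arrays with the same replicate number, and the reported fit did not pair arrays by number. The 2 arrays that stand apart carry different numbers, so these correlations cannot decide whether arrays of the same number were handled together. Alternatives were a replicate block, a filter below the 30th percentile, a variance trend, array weights, cyclic loess, housekeeping centring, a moulting covariate, unshared probe sets, gene means, a stricter threshold and leaving out arrays. A term for the 2 arrays that stand apart was added after seeing the data. Probe sequences were not used here.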

Additional observations from a re-analysis of the deposited data

How the results depend on the processing

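Across 18 alternatives no probe set passed the adjusted threshold, and the smallest adjusted p over all of them was 0.0532, with array weights. Counts at an unadjusted p under 0.05, 278 higher and 121 lower in the fit reported, were 2086 and 1444 with array weights, 1063 and 497 with the moulting covariate, 1254 and 545 with a term for the 2 arrays that stand apart, 182 and 70 without shared probe sets, and 1552 and 762 without those 2 arrays. The lower count was 187 under cyclic loess and 77 after the filter on low levels. With single arrays left out the counts ran from 76 to 930 higher and from 27 to 363 lower, with both lowest counts without replicate 3 of n4503 nDf57. Non-overlapping probe sets, 760 and 478, became 1277 to 3383 and 649 to 2657 with single arrays left out and 4579 and 4059 without both arrays, where fewer arrays make non-overlap more frequent by construction. The lower count was 786 under cyclic loess, 317 with housekeeping centring, 311 after the filter and 312 without shared probe sets. With a replicate block 0 probe sets were called, and 142 and 77 had an unadjusted p under 0.05.

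Of 1102 values of the 67 named probe sets 1078 kept their sign and 24, in 9 genes, did not, and the cause was not tested. With array weights prg-1 was -0.78, prg-2 -0.06, xol-1 -0.09, rpl-41.1 -0.02, gtnt-2 0.22 and C01G5.5 -0.15. Without both arrays that stand apart prg-1 was -0.45, xol-1 -0.07, mab-3 0.00, gtnt-2 0.26, C01G5.5 -0.10 and C01G5.3 0.01. With single arrays left out the lowest and highest values were -0.25 to 0.99 for prg-1, -0.04 to 0.28 for prg-2, -0.01 to 0.11 for xol-1, -0.36 to 0.05 for vit-1, -0.37 to 0.28 for gtnt-2, -0.07 to 0.10 for C01G5.5 and -0.04 to 0.00 for C01G5.3. C01G5.3 was 0.00 with housekeeping centring and 0.03 under cyclic loess. Of 629 list medians 616 moved by less than the spread between replicates.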

Other observations

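A few genes split the 6 arrays into 3 and 3 across the strains. Probe sets were taken whose 6 values fell into 3 high and 3 low ones with a gap of at least 0.8 log2 and at least 2 times the larger spread inside either side, a rule chosen after the values were seen. There were 26 such probe sets. In 19 of them replicate 1 of n4503 nDf57 and replicates 1 and 3 of n4357 n4358 stood together against the other 3 arrays, among them probe sets of cuticle collagens such as col-109 and col-138, of the sperm gene spch-1 and of msp-19.

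In 5 of them replicates 1 and 3 of n4503 nDf57 and replicate 2 of n4357 n4358 stood together, which matches neither the strains nor the arrays that stand apart. The widest gap of the 26, 4.02 log2, was that of timm-17B.2, which encodes a subunit of the mitochondrial protein import machinery. It had 10.90, 6.88 and 11.11 in n4503 nDf57 and 6.84, 11.07 and 6.67 in n4357 n4358. F49C12.6 had 6.82, 4.92 and 6.82 in n4503 nDf57 and 4.97, 6.53 and 4.96 in n4357 n4358. txdc-12.1, a thioredoxin-domain gene, had 10.66, 9.19 and 10.55 in n4503 nDf57 and 8.99, 10.35 and 8.93 in n4357 n4358. The mitochondrial thioredoxin reductase gene trxr-2 had 6.07, 4.89 and 6.23 in n4503 nDf57 and 5.09, 6.14 and 5.07 in n4357 n4358. lhgd-1 ran the other way, with 5.37, 6.46 and 5.36 in n4503 nDf57 and 6.37, 5.45 and 6.41 in n4357 n4358.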
